A study of Mus musculus with 8 samples.

Results

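The comparison is of dermis, the connective tissue layer of skin, from mouse embryos at embryonic day 18.5 (E18.5), in which the retinoic acid degrading enzyme Cyp26b1 was targeted with En1cre. The mutant library is labelled En1cre;Cyp26b1f/- and the control library Cyp26b1f/+, and there was 1 library of each, both of strain C57BL/6. Levels are in FPKM (fragments mapped, normalised to transcript length and to the size of the library), added up over the transcripts of a gene. Of 21882 gene symbols, 13398 were compared, those with at least 1 FPKM in either library. A further 188 symbols were left out because the authors' software marked a row of theirs as failed, too abundant or too sparse, among them the collagens Col1a1, Col1a2 and Col3a1. By the labels, the mutant carries 1 null allele in all cells and 1 floxed allele to be deleted where Cre has acted. The control has 1 floxed and 1 wild-type allele, and its label names no En1cre. Loss of the enzyme in Cre-expressing cells, 1 allele fewer elsewhere and the En1cre allele itself therefore cannot be told apart. The labels name no body site, litter or pooling. The series also holds E18.5 epidermis libraries of the same genotypes, 1 a group, and whole skin of wild-type and Cyp26b1-/- embryos at E16.5, 2 a group. They are used below only beside the dermis.

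Cyp26b1 is a cytochrome P450 that hydroxylates all-trans retinoic acid and so limits how much of it reaches the nucleus. Retinoic acid binds the RAR receptors, which pair with RXR receptors on DNA, and the genes that respond include those for its own breakdown, uptake and binding. In skin, retinoids act on keratinocyte differentiation, the hair follicle and the mesenchyme around it. En1, Engrailed 1, is a homeobox gene of the embryonic dermomyotome, whose descendants include dermis of the back, and of ventral ectoderm, and En1cre marks cells that have expressed it.

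A fold here is log2 of mutant over control after adding 1 FPKM to each, minus its median over the compared genes. It understates differences of low genes, and a value of 1 or -1 is a 2-fold difference. For a gene that reached 1 FPKM in 1 library only, the sign before centring is fixed by that. Many lists below hold such genes, also where their number is not given beside the list. As each group is 1 library, no difference below has a replicate, an SD or a test of genotype, and "higher" and "lower" describe these libraries only. The files give no counts, so depth is unknown. In bulk tissue, fewer cells of a type and less RNA per cell cannot be told apart.

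Several facts about the libraries bear on every result. Cyp26b1 itself, at chr6:84521408-84543902 in mm9, was not lower in the mutant dermis, with 54.2 FPKM in the control against 102 FPKM in the mutant (log2 fold 0.77). FPKM over a whole transcript do not report on a deleted exon, so this does not check the deletion. In the authors' deposited table the transcript NM_175475 was called higher at 5.42 against 42.02 FPKM with a q-value of 0.008. The other, NM_001177713, was listed at 48.74 against 59.71 FPKM and was not called. En1 was at 10.3 FPKM in the control against 7.52 FPKM in the mutant (log2 fold -0.53). Of the 10 measured genes nearest to Cyp26b1, 5 on each side, Dysf was 2-fold higher and Zfml 2-fold lower, and their median fold was 0.08. The libraries also differ in sex-linked genes. Xist, made from the inactive X chromosome, was listed at 9.63 against 0.03 FPKM, while the Y-linked genes Ddx3y, Kdm5d and Eif2s3y were at 0, 0.03 and 0 FPKM in the control and 1.36, 1.83 and 2.59 FPKM in the mutant. Sex and genotype cannot be told apart in these libraries.

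The control dermis library held much keratinocyte RNA. Its Krt14, the keratin of basal keratinocytes, stood at 4276 FPKM, above the 1496 FPKM of the control epidermis library, while the mesenchymal genes Vim and Col6a1 stood at 1389.9 and 568 FPKM against 95.4 and 19.7 FPKM in that epidermis. The tables were normalised separately, so these levels are set side by side only. The mutant dermis had less of the first and about as much or more of the others, with Krt14 at 1115, Vim at 1559 and Col6a1 at 1182 FPKM. Over the 19 basal keratinocyte genes the summed level was 13879.6 FPKM in the control and 4341 FPKM in the mutant.

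Differences between the dermis libraries were wide. At least 2-fold higher in the mutant were 1871 genes, 14% of those compared, and 1856 genes, 13.9%, were at least 2-fold lower. These shares are the background against which each gene list below is read. Without subtracting the median fold of 0.12, the counts were 2294 higher and 1509 lower, so that 60.3% rather than 50.2% of the 2-fold genes were higher. The folds had an SD over genes of 1.11, against 0.75 for epidermis and 0.66 for E16.5 skin, whose columns pool 2 libraries each. In the authors' deposited table, 745 of 18473 tested transcripts were called different, 427 higher and 318 lower in the mutant. Over the compared genes this gave 380 called higher, 2.84%, and 284 called lower, 2.12%. Those calls rest on Cuffdiff's model with 1 library a group and not on a spread between embryos.

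**Figure D1:**
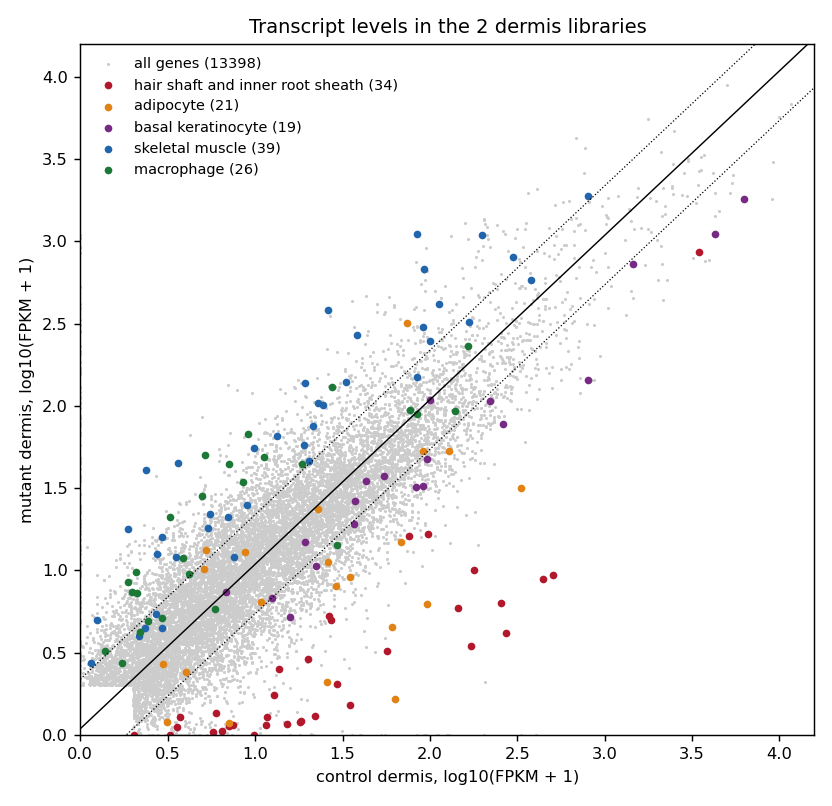
Each point is a gene, placed by its level in the control (x) and mutant (y) dermis library as log10(FPKM + 1). The solid line is the median fold and the dotted lines are 2-fold differences. The 34 hair shaft and inner root sheath genes all lie below the lower dotted line, and most skeletal muscle genes lie above the upper one.

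The fold moved with base composition. Over 12763 genes with a GC value, Spearman's rho between fold and GC content was -0.29, and with transcript length it was -0.01. In 8 bins of equal gene number the median fold ran from -0.15 in the lowest GC bin to 0.41 in the third and -0.84 in the highest. The 75 cytosolic ribosomal protein genes, whose products enter the ribosome in equal numbers, spread over folds from -2.13 for Rpl36 to 2.62 for Rpl35a, with an SD of 1.28. Of them 24 were 2-fold higher and 12 2-fold lower. In epidermis 0 were higher and 2 lower, and in E16.5 skin 0 and 0. An adjusted fold was therefore also computed, by subtracting the median of genes of like GC content and length. It left 1281 genes higher, 10%, and 1433 lower, 11.2%, of 12763. Where it changes a list's counts by more than 1.5 times, the adjusted counts are given beside the list. The part of base composition in single genes was not tested.

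**Figure D2:**
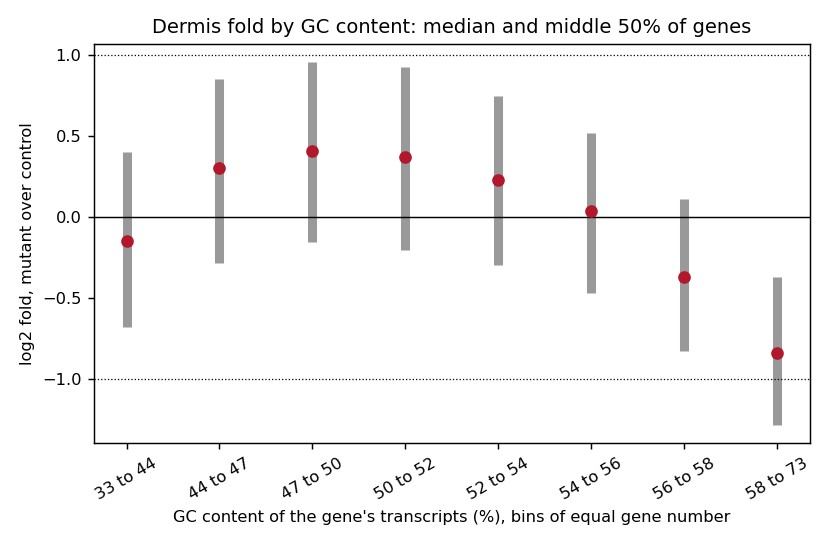
Median dermis fold (red points) and the middle 50% of genes (grey bars) in 8 bins of transcript GC content, with 2-fold differences dotted. The median falls from 0.41 in the third bin to -0.84 in the bin of highest GC content.

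Genes that respond to retinoic acid leaned higher in the mutant dermis. Of 18 measured members, 7 were 2-fold higher and 0 2-fold lower, with a median fold of 0.67 (0.38 adjusted). Stra6 and Rarb reached 1 FPKM in the mutant only and Nrip1 in the control only, which fixes the sign of their fold before centring. Rarres2, which encodes the secreted chemoattractant chemerin, was at 16.5 FPKM in the control against 143 FPKM in the mutant (log2 fold 2.91). Crabp2, the protein that carries retinoic acid to its nuclear receptor, was at 6.84 FPKM in the control against 33.6 FPKM in the mutant (log2 fold 2.02). Next came Plat, the tissue plasminogen activator, at 5.9 against 24.6 FPKM, 1.77, and the transglutaminase Tgm2 at 11.7 against 40.3 FPKM, 1.58. Both are long-known retinoid responsive genes. Stra6, the receptor that takes up retinol from its plasma carrier, stood at 0.46 against 2.75 FPKM, 1.24. Rarb, the receptor gene with the best described response element, was low in both libraries, with 0.38 FPKM in the control against 1.69 FPKM in the mutant (log2 fold 0.84). Dhrs3, which returns retinal to retinol, was at 38.6 against 58.7 FPKM, 0.47. The other Cyp26 enzymes were near absent: Cyp26a1 was listed at 0 and 0.05 FPKM and Cyp26c1 at 0 and 0.02 FPKM. Nrip1, Rarres1 and Ret had negative folds, from -0.76 to -0.14. The authors' deposited table called 2 of the 18 higher, Cyp26b1 among them, and 0 lower. Crabp2, Rarb and the listed Stra6 transcripts were not called. The dermal fibroblast list, some of whose cells make Plat, Tgm2 and Rarres2, summed to 2154 and 3366 FPKM, and its part in these values was not tested.

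A pair of windows shows what a retinoic acid response element looks like in members of this list. The sequence searched is named DR5, a direct repeat of the receptor half-site spaced by 5 bases, on both strands of the 250 bases before each RefSeq gene start (GRCm38.p6). It was found in 2 of 13 members with a window, against 0.088% of all 32851 windows. A member is counted if any of its windows matches, while the share of all is per window. The list was chosen as genes that respond to retinoic acid, so the contrast is no test. The capitals mark the repeat.
Rarb (chr14:16575493-16575549, minus strand): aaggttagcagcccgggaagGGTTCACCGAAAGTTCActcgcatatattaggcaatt
Cyp26a1 (chr19:37697756-37697807, plus strand): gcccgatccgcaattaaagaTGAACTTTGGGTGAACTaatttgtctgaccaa
The repeat ends 36 bases before the Rarb start and 15 bases before the Cyp26a1 start. Rarb was higher at a low level in the mutant dermis and Cyp26a1 stayed near 0, so the 2 genes that carry the repeat differed in level. A match is a description of these letters only.

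Among genes that make, store or carry retinoids, 5 of 16 measured members were 2-fold higher and 0 2-fold lower, while the median fold was -0.03 (5 higher and 1 lower adjusted). Crabp1, a cytoplasmic retinoic acid binding protein that is also a gene of the dermal papilla and of its precursors, stood at 34.95 FPKM in the control against 432 FPKM in the mutant (log2 fold 3.47). That is 11.1-fold on the centred scale, and the authors' deposited table called it higher. Fabp5, a fatty acid binding protein that can also carry retinoic acid, was at 81.7 FPKM in the control against 396 FPKM in the mutant (log2 fold 2.14). Both are carriers of small lipids, and Fabp5 is also made by keratinocytes. Rbp7 was at 1.66 against 11.5 FPKM, 2.11, Rdh11 at 4.25 against 15.7 FPKM, 1.55 and Adh7 at 1.55 against 5.32 FPKM, 1.19, the latter pair being enzymes of the retinol step. Other members stayed close to the median gene: the retinol dehydrogenase Rdh10 was at 3.58 against 4.34 FPKM, 0.10, the retinal dehydrogenase Aldh1a3 at 3.05 against 3.28 FPKM, -0.04 and the retinol carrier Rbp4 at 61.5 against 46.9 FPKM, -0.51.

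The most abundant receptors were lower in the mutant. Rarg, the main RAR of skin, was at 229 FPKM in the control against 108 FPKM in the mutant (log2 fold -1.20). Rara stood at 106 against 51.99 FPKM, -1.14 and Rxra at 128 against 68.04 FPKM, -1.03. Rxrg, at a low level, was on the other side at 2.29 against 5.14 FPKM, 0.78. In all, 4 of 14 measured members were 2-fold lower and 0 higher. After adjustment for GC content and length 0 were 2-fold lower, with Rarg at -0.80 and Rxra at -0.47. The transcripts of this list had a median GC content of 57.2%, which lies in a bin whose median fold was -0.37.

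**Figure D3:**
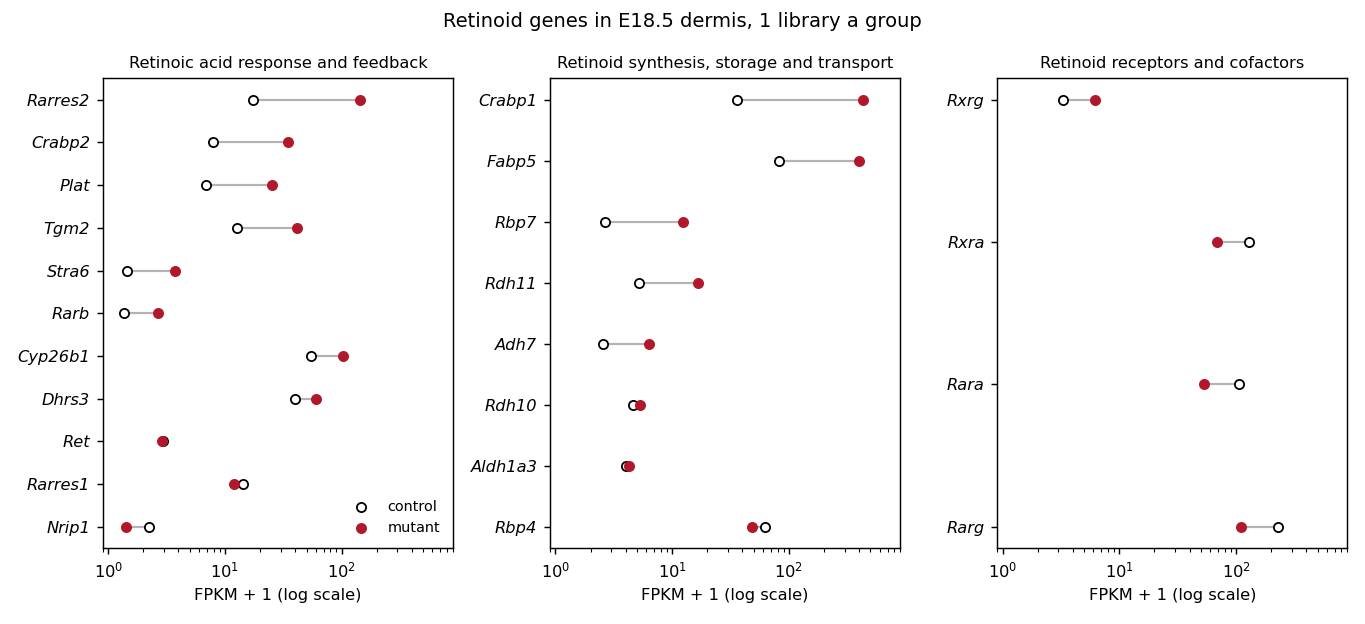
Levels of the measured retinoid genes named in the text, in control (open) and mutant (red) dermis as FPKM + 1 on a log scale, ordered by fold within 3 lists. Crabp1, Fabp5 and Rarres2 show the widest upward gaps, and the abundant receptors sit lower in the mutant.

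The hair follicle gave the widest group difference of the lists examined. The follicle is an epithelial ingrowth whose matrix cells produce the hair shaft, built of hair keratins and keratin-associated proteins, and the inner root sheath that moulds it, marked by its own keratins and by trichohyalin. Of 40 listed genes of the shaft and inner root sheath, 6 stayed under 1 FPKM in both libraries, 16 reached it in both and 18 in the control only, which fixes the direction of those 18. Each of the 34 measured genes was at least 2-fold lower in the mutant, where 13.9% of all genes were. Their median fold was -3.15 (-3.13 adjusted), and the authors' deposited table called 28 of them lower.

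The inner root sheath genes were lowest. Krt71 was at 504 FPKM in the control against 8.37 FPKM in the mutant (log2 fold -5.87), a 58.7-fold difference on the centred scale. Its partner type I keratins Krt25, Krt27 and Krt28 stood at 443 against 7.88 FPKM, -5.77, at 255 against 5.32 FPKM, -5.46 and at 177 against 9.07 FPKM, -4.26. Trichohyalin, Tchh, which hardens the sheath, was at 272 FPKM in the control against 3.17 FPKM in the mutant (log2 fold -6.15). Over 7 genes of this layer the summed level was 1801 FPKM in the control and 38.8 FPKM in the mutant. None of them had a fold above -2.81.

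The same held for the shaft. Krt35, an early keratin of the shaft cuticle and matrix, was at 171 FPKM in the control against 2.48 FPKM in the mutant (log2 fold -5.75), and Krt85 at 56.2 FPKM in the control against 2.22 FPKM in the mutant (log2 fold -4.27). Later cortex keratins were low in the control and nearly absent in the mutant, with Krt31 at 17.1 against 0.19 FPKM, -4.05 and Krt34 at 14.2 against 0.16 FPKM, -3.83. The 12 measured hair shaft keratins had folds from -5.75 to -1.66 and summed to 372 and 7.59 FPKM. Keratin-associated proteins are made last in the shaft. Of 11 listed genes 6 reached 1 FPKM, all in the control only, and Krtap3-1, Krtap4-1 and Krtap11-1 were listed at 0 in the mutant. Hair keratin genes have close copies, so reads may be shared between members of a cluster.

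Transcription factors of the hair matrix were lower by a narrower range. Hoxc13, which directs hair keratin genes, was at 26.3 FPKM in the control against 3.97 FPKM in the mutant (log2 fold -2.58). Foxn1, the gene of the nude mouse, stood at 12.7 against 1.52 FPKM, -2.56, Msx2 at 25.6 against 4.28 FPKM, -2.45, Dlx3 at 95.9 against 15.6 FPKM, -2.67 and Gata3, a gene of the inner root sheath, at 75.4 against 15.2 FPKM, -2.36. All 5 lay between -2.67 and -2.36. Of the 20 follicle transcription factor and stem cell genes, 12 were 2-fold lower and 1 higher (0 higher and 12 lower adjusted). Lhx2 was at 155 against 44.4 FPKM, -1.90, Sox9 at 53.1 against 14.9 FPKM, -1.89, the stem cell receptor Lgr6 at 55.6 against 10.8 FPKM, -2.39 and Krt79, a keratin of the upper follicle, at 721 against 146 FPKM, -2.42. Cd200 was the 1 member 2-fold higher, at 2.14 against 6.77 FPKM, 1.18, while Edar, the ectodysplasin receptor of the early follicle, was at 10 against 18.4 FPKM, 0.70.

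Keratinocyte genes as a whole were also lower, and their values stand beside the follicle result. Of 19 basal keratinocyte genes 13 were 2-fold lower and 0 higher, median -1.14. Krt5 was at 6265 FPKM in the control against 1806 FPKM in the mutant (log2 fold -1.92). Stratifin, Sfn, was at 804 against 142 FPKM, -2.61, the hemidesmosome collagen Col17a1 at 261 against 76.6 FPKM, -1.88 and the integrin Itgb4 at 82.5 against 30.9 FPKM, -1.51. Some genes made throughout the epithelium differed less: Trp63, the master regulator of stratified epithelium, was at 41.9 against 34 FPKM, -0.42, E-cadherin Cdh1 at 53.4 against 36.6 FPKM, -0.65 and Esrp1 at 18.4 against 13.9 FPKM, -0.50. Of 25 suprabasal and cornified genes 18 were 2-fold lower and 0 higher, median -1.78. The suprabasal keratins Krt1 and Krt10 stood at 1446 against 454 FPKM, -1.79 and 2011 against 578 FPKM, -1.92, and loricrin, Lor, at 621 against 167 FPKM, -2.01. Sprr1a, a small proline-rich envelope protein, had the lowest fold of the ranked genes, with 206 FPKM in the control against 1.09 FPKM in the mutant (log2 fold -6.75).

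To set the follicle beside the keratinocytes within each library, follicle genes were expressed as a percent of the summed level of 18 basal keratinocyte genes. The 7 inner root sheath genes amounted to 13.02% in the control dermis and 0.902% in the mutant dermis, a 14.4-fold difference. The 13 shaft keratins amounted to 2.69% and 0.178%, 15.1-fold. For the 5 matrix transcription factors the shares were 1.7% and 0.941%, 1.81-fold. These are ratios of summed FPKM in single libraries, and the part of keratinocyte content in the lower follicle levels was not tested.

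Promoters of these keratins are shown because so many of them share a TATA box, the letters TATAAA, read on the gene's strand in the 250 bases before the start. It was present in 17 of 29 shaft and inner root sheath genes with a window, 58.6%, against 7.592% of all windows. Here and for CTTTGAA below, a gene is counted if any of its windows matches, while the share of all is per window. It was also present in 10 of 25 suprabasal genes (40%), 2 of 9 basal keratinocyte genes (22.2%), 5 of 34 muscle genes (14.7%) and 1 of 16 adipocyte genes (6.2%). Inner root sheath keratins are printed with the box in capitals.
Krt25 (chr11:99322952-99323006, minus strand): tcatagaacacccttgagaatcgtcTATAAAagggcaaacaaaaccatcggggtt
Krt27 (chr11:99351119-99351158, minus strand): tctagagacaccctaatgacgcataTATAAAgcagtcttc
Krt28 (chr11:99374904-99374958, minus strand): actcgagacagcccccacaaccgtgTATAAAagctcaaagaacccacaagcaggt
Krt71 (chr15:101743107-101743162, minus strand): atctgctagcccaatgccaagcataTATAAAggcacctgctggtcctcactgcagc
Krt73 (chr15:101802361-101802415, minus strand): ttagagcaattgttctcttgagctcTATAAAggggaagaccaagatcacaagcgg
The letters CTTTGAA, a form of the site bound by LEF1 and TCF factors, were searched on both strands and found in 7 of 29 hair genes (24.1%), in 1 of 25 suprabasal genes (4%) and in 4.456% of all windows. Krt31 and Krt34, neighbouring genes for shaft keratins, carry both, in capitals.
Krt31 (chr11:100050565-100050801, minus strand): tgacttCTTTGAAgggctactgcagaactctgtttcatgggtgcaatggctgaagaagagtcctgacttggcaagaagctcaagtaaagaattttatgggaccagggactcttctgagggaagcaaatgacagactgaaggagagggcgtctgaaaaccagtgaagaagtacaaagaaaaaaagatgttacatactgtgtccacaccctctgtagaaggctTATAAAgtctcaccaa
Krt34 (chr11:100041570-100041804, minus strand): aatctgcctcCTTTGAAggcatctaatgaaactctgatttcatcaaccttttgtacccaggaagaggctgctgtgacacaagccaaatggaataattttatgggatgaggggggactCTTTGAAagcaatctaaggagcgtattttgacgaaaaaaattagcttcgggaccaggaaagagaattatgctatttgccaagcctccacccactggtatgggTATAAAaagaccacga
Krt34 holds CTTTGAA at 2 places and Krt31 at 1. The windows come from GRCm38.p6, a later build than that of the expression table, and were matched by gene symbol.

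The dermal condensate and the papilla that forms from it are the mesenchymal partner of the follicle. Their 25 measured genes were split, with 5 2-fold higher, 5 2-fold lower and a median fold of -0.21. Sox18 was at 291 FPKM in the control against 118 FPKM in the mutant (log2 fold -1.41). Corin, a papilla protease, stood at 3.41 against 1 FPKM, -1.26, the activin subunit Inhba at 5.55 against 1.93 FPKM, -1.28, the BMP inhibitor Nog at 12.9 against 6.5 FPKM, -1.01 and Sox2, a gene of the papilla of some hair types, at 5.59 against 3.14 FPKM, -0.79. On the other side were Crabp1, given above, and the Wnt inhibitor Wif1 at 43.2 against 106 FPKM, 1.15. The proteoglycan Vcan was at 11.6 against 31.5 FPKM, 1.24 and the chemokine receptor Cxcr4 at 8.5 against 31 FPKM, 1.63. After adjustment Sox18, Nog, Wif1 and Vcan came within 2-fold. Alkaline phosphatase, Alpl, and Bmp4 lay just inside 2-fold, at -0.99 and -0.98.

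Adipocyte genes differed within the list. Adipocytes of the skin fill with lipid in the days before birth, under the transcription factors Pparg and Cebpa. Of 21 measured genes 12 were 2-fold lower and 2 higher (1 higher and 12 lower adjusted), median -1.40, and the authors' deposited table called 8 lower. Here 3 of the 21 reached 1 FPKM in the control only. The secreted product adipsin, Cfd, was lowest, at 61.9 FPKM in the control against 0.66 FPKM in the mutant (log2 fold -5.37). Adiponectin, Adipoq, also secreted, stood at 59.5 FPKM in the control against 3.5 FPKM in the mutant (log2 fold -3.87). The lipid droplet proteins Plin1 and Cidec were at 95.7 against 5.28 FPKM, -4.07 and 24.8 against 1.09 FPKM, -3.75, and the lipase Pnpla2 at 66.9 against 13.9 FPKM, -2.31. Car3, a carbonic anhydrase abundant in fat and muscle, was at 332 against 30.8 FPKM, -3.51. Cebpa was at 128 against 52.2 FPKM, -1.40, yet Pparg was at 4.22 against 12.3 FPKM, 1.23 and Fabp4, an early target of Pparg also made by capillary endothelium, was at 73.2 FPKM in the control against 317 FPKM in the mutant (log2 fold 1.97). The adjusted folds of Cebpa and Pparg were -0.67 and 0.74. Lipoprotein lipase, Lpl, was at 21.99 against 22.7 FPKM, -0.08. Dlk1 and Mest, genes of cells before they turn into adipocytes, were at 513 against 779 FPKM, 0.48 and at 63.9 against 216 FPKM, 1.62. The named lipid droplet and secreted products and Cebpa were lower, while Pparg, Fabp4, Dlk1 and Mest had positive folds. Dlk1 and Mest are also in the reticular fibroblast list below. A difference in the stage of the adipocytes was not tested.

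Fibroblast genes were higher as a group. Of 13 dermal fibroblast genes 8 were 2-fold higher and 0 lower, median 1.07. Decorin, Dcn, which binds collagen fibrils, was at 53.8 FPKM in the control against 358 FPKM in the mutant (log2 fold 2.59), and dermatopontin, Dpt, at 48.6 FPKM in the control against 414 FPKM in the mutant (log2 fold 2.94). Fibroblasts of the upper, papillary dermis and those of the deep, reticular dermis have separate markers. Of 13 papillary genes 2 were 2-fold higher and 0 lower, median 0.25. Of 12 reticular and adipocyte precursor genes, 2 of them reaching 1 FPKM in the mutant only, 7 were higher and 0 lower, median 1.34. Among the first, Pdpn was at 2.6 against 21.6 FPKM, 2.53 while Axin2, Prdm1 and Apcdd1 had folds of -0.88, -0.40 and 0.15. Among the second, Mfap5 was at 13.9 against 119 FPKM, 2.89, Cd34 at 27.8 against 130.1 FPKM, 2.06, Ly6a, which encodes Sca1, at 14.4 against 54.7 FPKM, 1.73 and Plac8 at 0.94 against 12.1 FPKM, 2.63. The difference between the layers' lists was not tested.

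Matrix genes differed by family. Of 31 measured collagen chains 2 were 2-fold higher and 2 lower, under the 14% and 13.9% of all genes, with a median fold of -0.25. After adjustment 3 were higher and 2 lower, where 10% and 11.2% of all genes were, and the median became 0.38. Col1a1, Col1a2 and Col3a1, left out as stated above, are not among the 31. The abundant chains Col6a1, Col6a2 and Col5a1 were at 568 against 1182 FPKM, 0.93, at 1014 against 1446 FPKM, 0.39 and at 539.9 against 839.6 FPKM, 0.51. Of 47 elastic fibre and matrix glycoprotein genes 19 were higher and 2 lower (22 higher and 1 lower adjusted), median 0.80. Sparc, a collagen chaperone of the matrix, was at 683 FPKM in the control against 4267 FPKM in the mutant (log2 fold 2.52), periostin, Postn, at 63.9 against 237 FPKM, 1.75 and fibronectin, Fn1, at 91.4 against 276 FPKM, 1.46. The authors' deposited table called 4 of the 47 higher, and Sparc was not among them. Elastin, Eln, was at 1048 against 699 FPKM, -0.71 and the microfibril protein Mfap2 at 829 against 699 FPKM, -0.37. Both signs turned on adjustment, to 0.02 and 0.68. Of 12 small leucine-rich proteoglycans 5 were higher, among them biglycan, Bgn, at 120.2 against 534 FPKM, 2.02, and 1 lower, asporin, Aspn, at 19.5 against 8.36 FPKM, -1.25. Among matrix proteases and inhibitors 8 of 37 were higher and 0 lower (9 higher and 1 lower adjusted). Here 4 of the 37 reached 1 FPKM in the mutant only. Cathepsin K, Ctsk, a collagen-cutting protease, stood at 6.91 FPKM in the control against 124 FPKM in the mutant (log2 fold 3.85), and Mmp2 at 79.6 against 288 FPKM, 1.72, while Mmp14 was at 205 against 219 FPKM, -0.03.

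Skeletal muscle genes were the widest group on the higher side. The thin panniculus muscle lies under the dermis. Of 39 measured contractile and metabolic muscle genes 31 were 2-fold higher and 0 lower, against 14% and 13.9% of all genes, with a median fold of 1.69. Their summed level was 2687 FPKM in the control and 9237 FPKM in the mutant. Here 3 of the 39 reached 1 FPKM in the mutant only, which fixes the sign of their fold before centring. The fast myosin light chains Mylpf and Myl1 were at 83.5 against 1108 FPKM, 3.59 and 24.96 against 384 FPKM, 3.77, Mybpc1 at 1.37 against 39.5 FPKM, 3.97 and the calcium store protein Casq1 at 2.63 against 44.2 FPKM, 3.52. Sarcolipin, Sln, which restrains the calcium pump, had the highest fold of the ranked genes, at 6 FPKM in the control against 132 FPKM in the mutant (log2 fold 4.13). Skeletal actin, Acta1, differed less, at 799 against 1874 FPKM, 1.11, and creatine kinase, Ckm, at 379 against 584 FPKM, 0.50. Of 10 progenitor and early muscle genes, at low levels, 4 were higher and 0 lower (7 higher and 1 lower adjusted). Of these 3 reached 1 FPKM in the mutant only, which fixes the sign of their fold before centring. Myod1 was at 2.47 against 6.15 FPKM, 0.92, Myog at 13.2 against 22.9 FPKM, 0.64 and Tmem8c, which drives fusion of myoblasts, at 0.96 against 12 FPKM, 2.61, while Pax3, of muscle progenitors and of nerve and pigment lineages, was at 3.75 against 1.87 FPKM, -0.85. The part of muscle content in other differences was not tested.

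**Figure D4:**
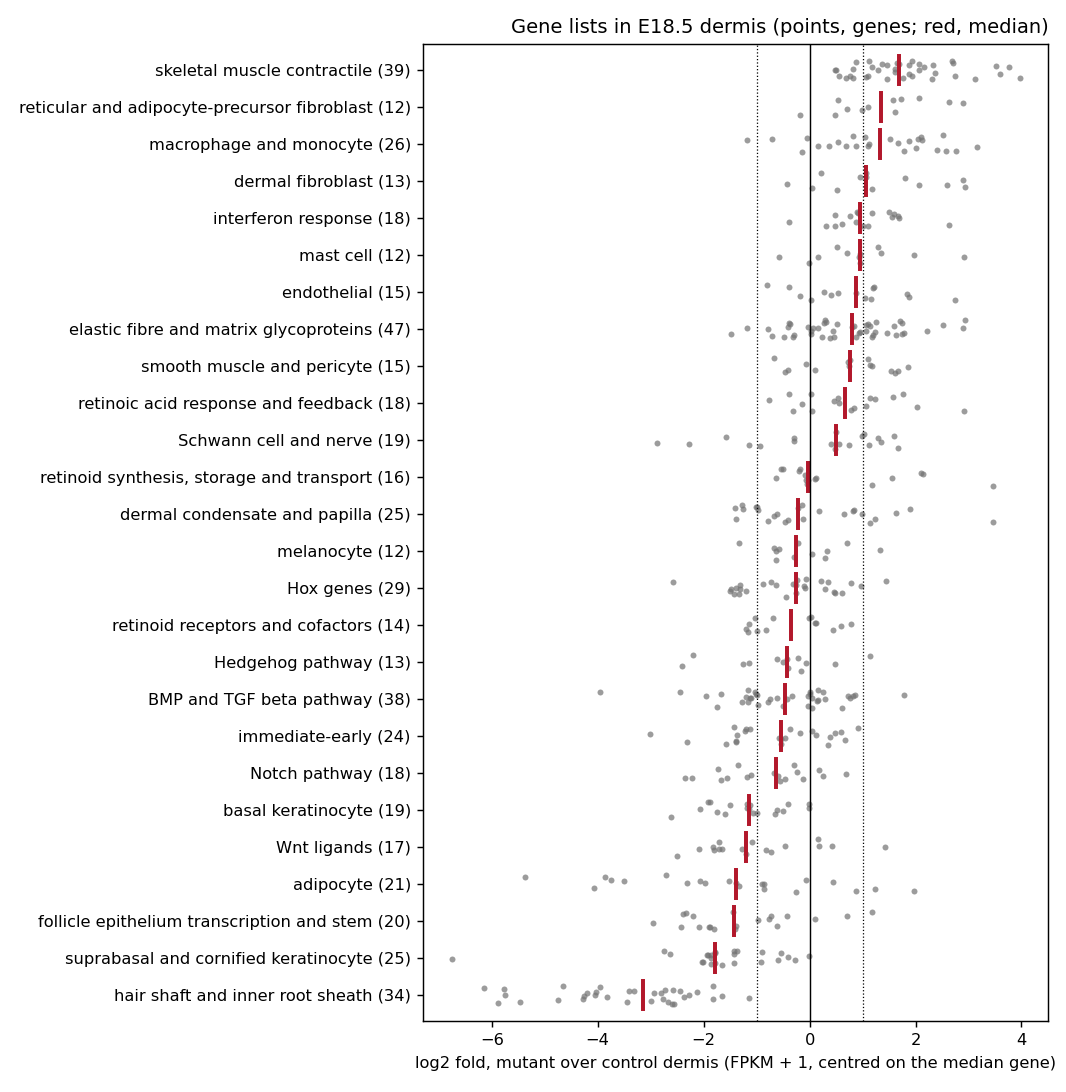
Folds of the measured members of 26 gene lists in dermis, 1 point a gene, with the median in red and the number of measured genes in brackets. Dotted lines mark 2-fold. Medians run from -3.15 for hair shaft and inner root sheath genes to 1.69 for skeletal muscle genes.

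Vessel genes were also higher. Of 15 endothelial genes 7 were 2-fold higher and 0 lower, median 0.89. Pecam1, an adhesion protein of all endothelium, was at 10.3 FPKM in the control against 82.2 FPKM in the mutant (log2 fold 2.75), Tek at 1.31 against 7.98 FPKM, 1.84 and Kdr, the main VEGF receptor, at 7.31 against 20.03 FPKM, 1.22. Cldn5 and Plvap had folds of -0.80 and -0.39, which turned to 0.10 and 0.33 on adjustment. The lymphatic list had 2 of 7 genes higher and 0 lower (4 and 0 adjusted), and 3 of the 7 reached 1 FPKM in the mutant only. Its members Lyve1 and Pdpn, also made by macrophages and fibroblasts, were at 4.17 against 49.5 FPKM, 3.17 and 2.6 against 21.6 FPKM, 2.53. The lymphatic receptor Flt4 was at 3.68 against 9.04 FPKM, 0.98, and Nr2f2 had a fold of 0.02. Prox1 stayed under 1 FPKM, at 0.36 against 0.28 FPKM. Of 15 smooth muscle and pericyte genes 7 were higher and 0 lower, with Acta2 at 40.9 against 165 FPKM, 1.86, Pdgfrb at 18.9 against 47.1 FPKM, 1.15 and Myh11, the smooth muscle myosin, at 17.6 against 20.9 FPKM, 0.11.

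Blood-derived cells of the dermis showed the same lean. Of 26 macrophage and monocyte genes 16 were 2-fold higher and 1, Maf, lower, median 1.32. Here 4 of the 26 reached 1 FPKM in the mutant only, which fixes the sign of their fold before centring. The Fc receptor chain Fcer1g was at 8.15 FPKM in the control against 66.4 FPKM in the mutant (log2 fold 2.76), the folate receptor Folr2 at 2.26 against 20.1 FPKM, 2.58, lysozyme Lyz2 at 6.12 against 43.3 FPKM, 2.51 and the growth factor receptor Csf1r at 17.6 against 43.4 FPKM, 1.13. The complement genes C1qa, C1qb and C1qc, which macrophages also make, had folds of -0.70, 0.17 and -0.04 (0.35, 0.77 and 0.46 adjusted). Mast cell genes were higher for 4 of 12, with 0 lower and a median of 0.95. The chymase Cma1 was at 130.3 FPKM in the control against 1072 FPKM in the mutant (log2 fold 2.91), Mcpt4 at 39.5 against 172 FPKM, 1.98 and histidine decarboxylase, Hdc, at 111 against 295 FPKM, 1.28. Cpa3 was at 83.8 against 102 FPKM, 0.16, so the mast cell proteases differed unevenly. Antigen presentation genes were within 2-fold, with Cd74 at 39.2 against 28.97 FPKM, -0.55. Of 11 erythroid genes 5 were 2-fold higher and 1 lower (3 and 0 adjusted). Of these 11, 2 reached 1 FPKM in the mutant only and 2 in the control only. Globin genes had no common sign: Hba-a1 was at 11673 against 6886 FPKM, -0.88 (-0.28 adjusted). Hbb-b2 was at 1762 against 5535 FPKM, 1.53 (0.87 adjusted), and Hba-a2 at 59.2 against 173 FPKM, 1.41. Hba-a1 and Hba-a2 are listed at the same coordinates, as are Hbb-b1 and Hbb-b2, so reads may be shared between copies.

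Nerve-associated and pigment cells gave mixed values. Of 19 Schwann cell and nerve genes 6 were higher and 4 lower. The myelin gene Pmp22 was at 32.5 against 115 FPKM, 1.66. Sox10 was at 45.5 against 25.4 FPKM, -0.94, and Pou3f1, made by Schwann cells and by keratinocytes, at 66.3 against 8.95 FPKM, -2.88. Of 12 melanocyte genes 1, Mlana, was higher and 1, Dct, lower, at 5.94 against 18.1 FPKM, 1.34 and 120.4 against 51.7 FPKM, -1.33 (0 higher and 3 lower adjusted), while Pmel was at 53.99 against 47.5 FPKM, -0.30.

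Signals between epithelium and mesenchyme were mostly on the lower side, in the library that also had the lower keratinocyte lists. The part of keratinocyte content in them was not tested. Wnt proteins start and maintain follicles. Of 17 Wnt and R-spondin genes 10 were 2-fold lower and 1 higher (6 and 1 adjusted), median -1.20. Wnt4 was at 230.2 FPKM in the control against 43.2 FPKM in the mutant (log2 fold -2.51), and Wnt10a, Wnt10b, Wnt6 and Wnt7b stood at 56.4 against 13.7 FPKM, -2.09, at 70.6 against 21.2 FPKM, -1.81, at 127 against 41.9 FPKM, -1.71 and at 45.9 against 15.2 FPKM, -1.65. All 9 ligands grouped as epithelial had folds from -2.51 to -1.09. The 8 genes grouped as mesenchymal ran from -1.20 to 1.42, with Wnt2 at 6 against 19.4 FPKM, 1.42, Wnt5a at 19.01 against 14.8 FPKM, -0.46 and Rspo3 at 6.1 against 7.78 FPKM, 0.18. That grouping was made after the values were seen. Among 28 Wnt inhibitors and targets 6 were lower and 2 higher (5 and 1 adjusted). Sp5, a direct target, was at 14.7 against 2.49 FPKM, -2.29 and Sostdc1, an inhibitor made by follicle epithelium, at 126 against 36.4 FPKM, -1.88. The targets Axin2 and Lef1 were within 2-fold, at 53.1 against 31.1 FPKM, -0.88 and 67.9 against 47.95 FPKM, -0.62, and beta catenin, Ctnnb1, was at 273 against 316 FPKM, 0.09.

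Sonic hedgehog is made by follicle epithelium and received by both epithelium and papilla, where Ptch1 and Gli1 respond. The ligand Shh was at 64.4 FPKM in the control against 14.4 FPKM in the mutant (log2 fold -2.21). Ptch1 was at 118 FPKM in the control against 23.4 FPKM in the mutant (log2 fold -2.40) and the coreceptor Gas1 at 195 against 96 FPKM, -1.14, whereas Gli1 was at 219 against 177 FPKM, -0.43 and Smo at 113 against 79.7 FPKM, -0.62. In all, 4 of 13 Hedgehog genes were 2-fold lower and 1, the coreceptor Cdon, higher; after adjustment 2 were lower.

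In the BMP and TGF beta pathway 14 of 38 genes were 2-fold lower and 1 higher, median -0.47. Of the 38, 3 reached 1 FPKM in the control only. The homeobox gene Msx1, a BMP target, was at 54.2 FPKM in the control against 2.86 FPKM in the mutant (log2 fold -3.96). Other BMP targets were lower too, with Id1 at 216 against 109 FPKM, -1.10, Id3 at 307 against 148 FPKM, -1.17 and Smad6 at 19.97 against 8.91 FPKM, -1.20, but Id2 was at 13.8 against 27.4 FPKM, 0.81. The ligands Bmp2 and Bmp7 stood at 14.7 against 4.4 FPKM, -1.66 and 153 against 81.7 FPKM, -1.02. Fstl1 was the 1 member 2-fold higher, at 113 against 426 FPKM, 1.78.

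The Notch pathway, which sorts cell fates in the follicle, had 8 of 18 genes 2-fold lower and 0 higher (8 and 1 adjusted), median -0.63. The ligand Jag2 was at 191 against 43.9 FPKM, -2.22, the receptor Notch1 at 90.7 against 29.2 FPKM, -1.72 and the targets Hes5 and Hes1 at 27.1 against 5.03 FPKM, -2.34 and 80.2 against 33.5 FPKM, -1.36. Endothelial Notch genes differed less, with Dll4 at 7.93 against 10.03 FPKM, 0.18 and Notch4 at 14.5 against 9.59 FPKM, -0.67 (0.10 adjusted). FGF genes were split, 3 higher and 5 lower of 20. Of the 20, 3 reached 1 FPKM in the control only, Fgf22 among them, which fixes the sign of their fold before centring. The keratinocyte receptor Fgfr3 was at 69.99 against 21.4 FPKM, -1.79 and Fgf22 at 7.46 against 0.58 FPKM, -2.54, while the mesenchymal receptor Fgfr1 was at 139.8 against 211 FPKM, 0.47 and the feedback inhibitor Spry4 at 3.1 against 9.7 FPKM, 1.26.

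Hox genes separated by cluster. Of 29 measured, 9 were 2-fold lower and 1 higher. Apart from Hoxc13, all 8 lower members were in the Hoxa and Hoxb clusters, whose 17 measured genes had a median of -0.87. Hoxb3 was at 32.3 against 11.8 FPKM, -1.50, Hoxa3 at 10.2 against 3.37 FPKM, -1.48 and Hoxb6 at 32.5 against 12.6 FPKM, -1.42, but Hoxb9 was at 1.79 against 7.24 FPKM, 1.44. The 11 measured Hoxc and Hoxd genes other than Hoxc13 lay between -0.73 and 0.96, median 0.30, none past 2-fold. This grouping too was made after the values were seen, and the difference between clusters was not tested. Of 37 transcription factors of dermal patterning 10 were lower and 1, Meox1, higher. Lmx1b was at 11.8 against 2.08 FPKM, -2.17, Foxc1 at 12.8 against 1.97 FPKM, -2.33, Zic1 at 37.9 against 14.5 FPKM, -1.45 and Osr2 at 142 against 63.9 FPKM, -1.26. Twist2, Tbx15 and Prrx1, which mark dermal mesenchyme, had folds of -0.43, 0.24 and 0.31 (0.07, -0.03 and 0.72 adjusted).

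Genes of cell state and handling are given for completeness. Immediate-early genes, which respond within minutes to tissue handling as well as to growth signals, were 2-fold lower for 10 of 24 and higher for 0; adjustment left 5 lower. Egr3 was at 159 against 20.6 FPKM, -3.01, Junb at 106 against 22.2 FPKM, -2.32 and Jun at 127 against 50.9 FPKM, -1.43, while Fos was at 7.54 against 7.24 FPKM, -0.17. Heat shock and unfolded protein genes were higher for 8 and lower for 2 of 23 (3 and 2 adjusted), with the inducible pair Hspa1a and Hspa1b lower at 72.5 against 14.8 FPKM, -2.34 and 86.4 against 16.6 FPKM, -2.44, and Hspa8 at 314 against 1193 FPKM, 1.80. Metallothioneins, small proteins that bind zinc, were lower for 3 of 4: Mt1 was at 873 FPKM in the control against 142 FPKM in the mutant (log2 fold -2.74), Mt2 at 725 against 119 FPKM, -2.72 and Mt4, a form of stratified epithelium, at 41.01 against 3.29 FPKM, -3.41.

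Of 33 cell cycle genes 7 were 2-fold higher and 0 lower, where 14% and 13.9% of all genes were (6 higher and 1 lower adjusted), with Mki67 at 8.51 against 16.6 FPKM, 0.76 and Pcna at 136 against 94.8 FPKM, -0.64. Interferon response genes were higher for 9 of 18 and lower for 0 (6 higher adjusted). Of the 18, 8 reached 1 FPKM in the mutant only, which fixes the sign of their fold before centring. The highest was the antiviral membrane protein Ifitm3 at 54.6 against 373 FPKM, 2.63. Most others were at a few FPKM, such as Isg15 at 2.72 against 10.8 FPKM, 1.55. Complement and acute phase genes were split, 6 higher and 5 lower of 17, of which 3 reached 1 FPKM in the mutant only and 2 in the control only. Haptoglobin, Hp, was at 42.1 against 2.41 FPKM, -3.78 and C3 at 12.1 against 2.41 FPKM, -2.06, while the classical pathway protease C1s was at 1.32 against 13.2 FPKM, 2.50. In a list of glutathione transferases and oxidant response genes 5 of 23 were higher and 0 lower (3 higher and 2 lower adjusted), with Gstm2 at 12.01 against 83.2 FPKM, 2.57 and Gsta4 at 2.94 against 19.1 FPKM, 2.23. Among imprinted and IGF genes 7 of 26 were higher and 3 lower. Igf2 and H19 were at 527 against 1078 FPKM, 0.91 and 2476 against 4666 FPKM, 0.79, Sgce at 4.09 against 30.04 FPKM, 2.49 and Peg3 at 44.1 against 12.2 FPKM, -1.90.

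The remaining lists follow as counts, against the same background. Cartilage and bone had 1 of 15 higher and 2 lower, tendon 2 and 1 of 4 (2 and 0 adjusted), and glycolysis and hypoxia genes 6 and 2 of 26. Chemokine and cytokine genes had 6 higher and 1 lower of 17 (6 and 3 adjusted), of which 7 reached 1 FPKM in the mutant only. The lower 1 was the keratinocyte chemokine Ccl27a at 69.97 against 16.7 FPKM, -2.13. For angiogenic factors the counts were 6 and 1 of 25 (7 and 2 adjusted), with Figf, which encodes VEGF-D, at 2.18 against 17.01 FPKM, 2.38. Sterol and fatty acid synthesis had 3 and 3 of 27, and oxidative phosphorylation 20 and 9 of 74 (16 and 14 adjusted). Lens genes, of which 21 were in the table, reached 1 FPKM for 6, with 1 higher and 3 lower (2 and 2 adjusted). Epithelial genes of thymus, salivary gland and gut did so for 6, 2 of them lower (1 adjusted). Of other leukocyte genes 10 of 23 reached 1 FPKM, 4 of them in the mutant only, with 1 higher and 1 lower.

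Ranked by fold among genes of at least 5 FPKM in either library with a single transcript, the 15 highest were mainly muscle and connective tissue genes. After Sln came the pseudogene Olfr856-ps1 at 3.95 against 84.7 FPKM, 3.99, then Mybpc1. Itgb1bp2, which encodes the muscle protein melusin, was at 3.23 against 65.9 FPKM, 3.86. The others were Ctsk, Zfp488, Mylpf, Casq1, Crabp1, Rangrf, Lyve1, Pdgfrl, Casq2, Lsm3 and Dpt, down to a fold of 2.94. Rangrf stood at 0.01 against 9.87 FPKM, 3.31 and Pdgfrl at 6.19 against 67.4 FPKM, 3.13. Of the 15 lowest, 11 were keratin genes or a keratin pseudogene, from Krt71 at -5.87 to Krt31 at -4.05. The other 4 were Sprr1a, Tchh, Cfd and the pseudogene Pisd-ps1, at 30.3 against 0.06 FPKM, -5.01.

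Beside the dermis, the epidermis had 3.49% of 11362 genes 2-fold higher and 4.86% lower, and E16.5 skin had 1.67% of 14154 higher and 2.85% lower. The 3 tables share no library, and the E18.5 titles number different embryos for dermis and epidermis. The epidermis pair also differs in sex-linked genes, with folds of -3.26 for Xist, 1.66 for Kdm5d and 2.49 for Eif2s3y. At E16.5 these folds were -0.48, 0.97 and 0.96. Sex and genotype cannot be told apart in the epidermis libraries either. Of 1622 dermis-lower genes measured in both tissues, 183 (11.3%) were also lower in the epidermis, which is 35.4% of the 517 lower there. With E16.5 skin 161 of 1720 (9.36%) were shared, 56.1% of the 287 lower there. Of the higher genes 48 of 1383 (3.47%) and 26 of 1786 (1.46%) were shared, 15.7% and 21% of those higher in epidermis and in E16.5 skin. Opposite to the dermis, 79 of these dermis-higher genes (5.71%) were lower in epidermis and 29 (1.62%) lower in E16.5 skin. Over all genes measured in dermis and epidermis, 4.77% were lower and 2.82% higher in epidermis. Over those measured in dermis and E16.5 skin, 2.25% were lower and 0.973% higher in that skin. Of the dermis-lower genes 86 (5.3%) were higher in epidermis and 22 (1.28%) in E16.5 skin.

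Of 10528 genes common to all comparisons, 39 were lower in each and 3 higher in each. The lower set holds the keratins Krt14, Krt16, Krt17, Krt25, Krt27, Krt28, Krt35, Krt71, Krt73, Krt83 and Krt85 and the pseudogene Krt72-ps. It also holds Hoxc13, Lhx2, Lgr6, Sox21, Mt4, Sprr1a, Lamb3 and S100a3, a calcium-binding protein of the hair cuticle. Sox21, a gene of the hair cuticle, was at 71.2 against 7.34 FPKM, -3.24 in dermis, with folds of -1.92 in epidermis and -1.05 at E16.5. S100a3 was at 33.3 against 1.54 FPKM, -3.88 in dermis, with -2.04 and -3.29 in the other tables. Higher in all 3 were the glutathione transferase Gsta4, with folds of 2.23, 1.88 and 1.71, the membrane protein Mall, with 1.40, 1.64 and 1.33, and the microRNA gene Mir330.

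Follicle genes were compared across the tables. Inner root sheath genes had a median fold of -5.46 in dermis, -2.94 over 6 genes measured in epidermis and -2.83 over 7 in E16.5 skin. Krt71 was at 45.3 and 1.11 FPKM in the control and mutant epidermis and at 47.9 and 0.28 FPKM in wild-type and mutant skin. For shaft keratins the medians were -3.93, -0.87 and -1.77. As a percent of basal keratinocyte genes, the inner root sheath set was 1.04% and 0.344% in control and mutant epidermis and 1.54% and 0.475% at E16.5. The share of the matrix transcription factors was 0.84% in the control and 1.34% in the mutant epidermis, and 0.681% and 0.482% at E16.5. In epidermis the factors' own sum was 133 against 142 FPKM, while that of the basal genes was 15876 against 10566 FPKM. Tchh went another way, with folds of -6.15 in dermis, -0.31 in epidermis and 0.90 at E16.5.

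**Figure D5:**
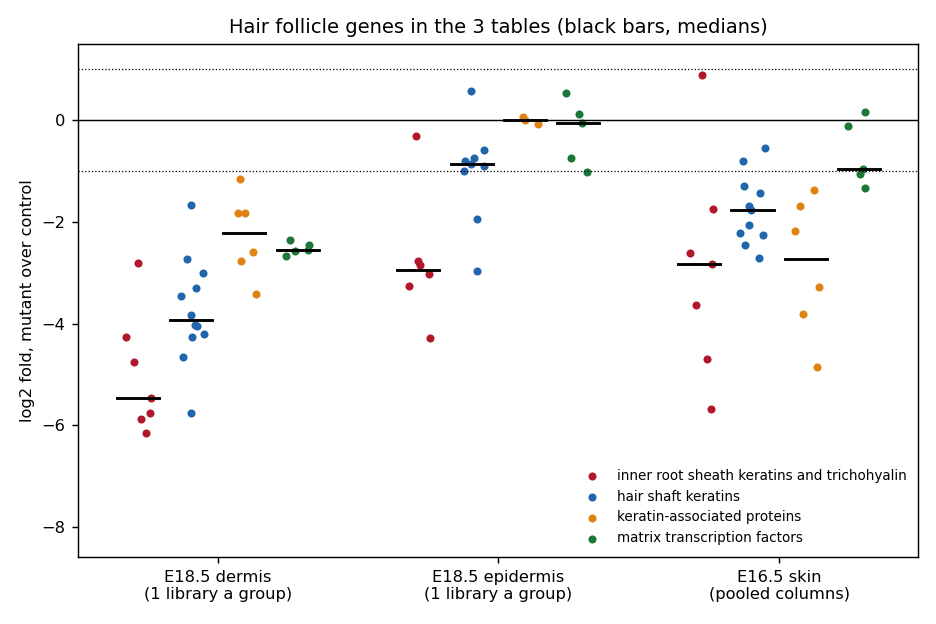
Folds of hair follicle genes in the dermis, epidermis and E16.5 skin tables, with medians as black bars and 2-fold differences dotted. Inner root sheath medians are -5.46, -2.94 and -2.83, and those of the matrix transcription factors are -2.56, -0.06 and -0.95.

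Some other lists that were lower in the dermis had lower members in the other tables too, read against the 4.86% and 2.85% above. Basal keratinocyte genes had 8 of 19 lower in epidermis and 2 of 18 at E16.5, and follicle transcription factor and stem cell genes 6 of 17 lower in epidermis and 2 of 16 at E16.5. Suprabasal genes had 2 of 22 lower in epidermis and 11 of 25 at E16.5, with 5 and 2 higher. Wnt inhibitors and targets had 8 of 19 lower in epidermis and 0 of 27 at E16.5, Notch genes 4 of 14 lower in epidermis and 0 of 18 at E16.5, and metallothioneins 2 of 3 lower in epidermis and 1 of 4 at E16.5.

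Skeletal muscle genes, mostly higher in dermis, had 0 of 37 2-fold higher and 0 lower at E16.5, median -0.09, and 5 of 17 lower in epidermis. Macrophage genes had 0 of 24 higher at E16.5, and of 19 measured in epidermis 5 were lower. In epidermis, dermal fibroblast genes had 9 of 13 lower, with Dcn at 5.34 and 1.78 FPKM there. Adipocyte genes had 3 of 11 2-fold lower and 0 higher in epidermis, where their median fold was 0.39. At E16.5, 1 of 21 was lower and 0 higher, median -0.58, with Plin1 at 20.97 and 17.9 FPKM. Among retinoid genes Crabp2 had a positive fold in each comparison, 2.02, 0.89 and 0.98, and so had Dhrs3, 0.47, 0.82 and 1.05. Rarres2, at 2.91 in dermis, had -0.42 in epidermis and 0.05 at E16.5. Stra6 had 3.78 at E16.5 and Rarb 2.62.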

How the data were processed

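RNA from E18.5 dermis was sequenced, 1 library a group. Trizol extraction and Illumina TruSeq libraries are stated per the labels' protocols. The submitters' processing notes name Cuffdiff 1.3.0, Cufflinks, Bowtie 0.12.7.0 and TopHat 1.3.2 and the build mm9, without their roles. The deposited table lists, per the file headers, FPKM, a fold, a p-value and a q-value for each of 27641 transcripts. The authors' call is at a q-value of at most 0.05. FPKM were normalised by the authors for length and library size. No column of per-sample values was left unmapped, and strand handling is not given in the sources used here.

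FPKM were summed by gene, with a pseudocount of 1 (Python 3.11.15, pandas 2.3.3, numpy 2.4.6). Of 27641 rows, 3 were marked too abundant, 62 failed and 271 too sparse. Below 1 FPKM in both libraries were 8296 genes. The procedure was tested on simulated data. The members, the 54 gene lists and the rules were chosen with earlier results of these data known. Genes named were Cyp26b1 and its neighbours, En1, measured retinoid genes, the 15 highest and 15 lowest folds (short RNAs, predicted, sex-linked and multi-transcript genes left out), and from each list up to 5 of largest fold and 3 of highest level. Further list members, subgroups and genes of the 3-table overlap were named after their values were seen. Alternatives covered pseudocount, minimum level, centring, transcript choice, failed rows, gene classes and, added after seeing the data, GC content (10 bins) with length (5 bins). Some genes are not reported here.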

Additional observations from a re-analysis of the deposited data

Results flagged for a closer look

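The following genes were 2-fold different in opposite directions in dermis and epidermis, both at E18.5. Each tissue has 1 library a group, so the difference between tissues was not tested. All levels are control against mutant.

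Genes of connective tissue were higher in mutant dermis and lower in mutant epidermis, where all but S100a4 were at far lower control levels. Sparc had a fold of 2.52 in dermis and -1.95 in epidermis (60.3 against 13.1 FPKM). Dcn had 2.59 and -1.01, Bgn 2.02 and -1.93, Fstl1 1.78 and -1.69, Igfbp3 1.90 and -1.10, and Serpinf1 1.40 and -1.57. S100a4, at 9.09 FPKM in control dermis and 13.4 FPKM in control epidermis, had 1.80 and -1.93. Thy1 had 1.06 and -1.05. Of cells that enter the skin, the mast cell protease Cma1 had 2.91 and -1.61, the Fc receptor chain Fcer1g 2.76 and -1.09, and the pigment cell gene Mlana 1.34 and -1.32. Hba-a2, a globin, had 1.41 and -2.49, and is listed at 0 FPKM in the mutant epidermis. It shares its listed coordinates with Hba-a1, so reads may be shared between them. The pseudogene Olfr856-ps1 had 3.99 and -1.36.

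The opposite pattern, lower in dermis and higher in epidermis, held for the tight junction gene Cldn4 with -2.64 and 1.07, at 35.6 against 5.38 FPKM in dermis and 151 against 282 FPKM in epidermis. Id4, an inhibitor of differentiation factors, had -1.96 and 1.08, and Hoxb6 -1.42 and 1.05.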

How the results depend on the processing

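No paired analysis was possible because each dermis group holds 1 library, and the E16.5 columns that share replicate numbers are pooled. Across settings the counts of 2-fold genes stayed within 1.5 times of 1871 higher and 1856 lower, except with a pseudocount of 5, which gave 982 and 966. The Cyp26b1 log2 fold of 0.77 stayed positive in every setting, from 0.18 with the highest transcript only to 1.16 in GC and length bins, where it passed 2-fold. Of 108 list counts, 36 moved by more than 1.5 times with a pseudocount of 5, 29 in GC and length bins and 21 with a pseudocount of 0.1, and 0 to 8 elsewhere. Of 388 named genes beside Cyp26b1, 51 came within 2-fold with a pseudocount of 5, and 38 of 380 in GC and length bins. In those bins 33 named genes changed sign, 1 of them from past 2-fold, the lens gene Crybb3 from -1.04 to 0.0032. Elsewhere 0 to 11 changed sign, none from past 2-fold. The cause of these shifts was not tested. With 1 library a group and no counts, neither the spread between embryos nor counting error can be given, and embryo, sex, dissection and genotype cannot be told apart.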
